A study of Rattus norvegicus with 3 samples.

Results

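The Bcl2 family genes described here were 10 rat genes whose proteins restrain or drive the mitochondrial route to apoptosis. They were chosen by name and not by their measured values. A probe was assigned to a member when it was not a control probe and its accession belonged to that symbol in the RefSeq gene table of the rat. All 10 members were on the array, among 16654 named genes and 38973 genes in all, and they were read from 17 probes on 19 spots. Of the members, 3 are anti-apoptotic (Bcl2, Bcl2l1 and Mcl1), 2 are effectors (Bax and Bak1) and 5 are BH3-only genes (Bad, Bid, Bik, Bbc3 and Bcl2l11).

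Anti-apoptotic proteins of the family hold the effectors Bax and Bak in check at the outer mitochondrial membrane, and effectors that escape this hold form pores through which cytochrome c leaves and caspases are activated. BH3-only proteins carry stress signals to this step, by occupying the anti-apoptotic proteins or by activating the effectors directly. In neurons Bcl-xL, made from Bcl2l1, is a main survival factor, and much of the family is controlled by phosphorylation, cleavage or protein turnover, which RNA levels do not show.

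The study examined the cerebellar cortex of male Wistar rats, 9 weeks old, 2 days after transient occlusion of the right middle cerebral artery (MCAO) or a sham operation, to describe the cerebellum on the side opposite to a cerebral infarct. The left (contralateral) and right (ipsilateral) cortex of rats with MCAO had 1 array each, and so had the left cortex of the control group, in which the right common carotid artery was exposed without occlusion. Tissue of 4 rats was pooled for each array, and both MCAO sides came from the same rats. No condition had a replicate array, so no difference was tested, and every ratio sets a single pool against another.

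Values are log2 fluorescence signals after each array was shifted to a common 75th percentile, and a log2 ratio is the difference of these between 2 arrays, where a value of 1 is the threshold the study used. The error given beside a ratio is the one the scanner software reports, and it leaves out variation between rats and between hybridisations. Both comparisons with the control group share its array, so an error in that array enters both. A probe that the scanner did not mark as well above background gives only a bound. Where its signal exceeded the lowest one so marked on that array, the observed ratio is given instead. Every probe was well above background on all 3 arrays for 7 of the 10 members and for 11260 of the 16654 named genes. The other members were Bcl2l1, Bcl2l11 and Bid.

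The arrays carried the marks of cerebellar cortex. All 7 Purkinje cell markers were well above background on the 3 arrays, with a summed signal of 215151 on the contralateral, 215133 on the ipsilateral and 196054 on the control array, and the most abundant was Itpr1, a calcium release channel. All 7 granule cell markers were also well above background, led by Cbln1, with sums of 87611, 87110 and 88226.5 in the same order. Neurons of the cerebellar cortex were thus read on each array. In bulk tissue, fewer cells of a type and less RNA per cell cannot be told apart.

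Markers of other tissue differed between the arrays. The 8 choroid plexus markers summed to 10754 on the contralateral, 76840 on the ipsilateral and 34028 on the control array. Against the control array, 7 of the 8 were below 0 contralaterally and 7 of 8 above 0 ipsilaterally. Ttr, the thyroid hormone carrier made by that epithelium, was the most abundant, with log2 ratios to the control array of -1.74 contralaterally and 1.19 ipsilaterally. Kl was not well above background contralaterally, and neither was Prlr ipsilaterally. The 7 forebrain neuron markers summed to 2154, 1285 and 1199 in the same order, and Neurod6, the most abundant, had log2 ratios of -0.06 and 0.06. Cck and Nrgn, chosen after their values were seen, had contralateral log2 ratios of 3.55 and 1.82, while Tbr1 was not well above background on any array. The 4 erythroid markers on the array summed to 68.1, 55.7 and 205, led by the globin gene Hbb-bs, with Alas2 not well above background on either MCAO array, Slc4a1 not so contralaterally and Hbb not so ipsilaterally.

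Glial and vascular markers were read as well. The 7 microglia and macrophage markers summed to 4684, 5906 and 3925, and Cx3cr1, the fractalkine receptor, was the most abundant, with log2 ratios of 0.77 contralaterally and 1.27 ipsilaterally. The other 6 summed to 2346, 2590 and 2552, and of all 7 markers 4 were above 0 contralaterally and 5 ipsilaterally. The 6 markers of Bergmann glia and astrocytes summed to 72902, 73979 and 81403. Aqp4, a water channel and the most abundant of them by its mean over the arrays, had log2 ratios of -0.56 contralaterally and -0.45 ipsilaterally. Of the 6 markers 3 were above 0 and 3 below on each side, from -0.74 and -0.65 for Gfap to 0.38 and 0.27 for Gdf10, both named after their values were seen. The 6 endothelial markers, led by Cldn5, summed to 3468, 3611 and 4111. The part of these cell types in the member ratios was not tested.

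None of the 10 members passed the threshold in any comparison. In the contralateral to control comparison, 0 of 10 had a log2 ratio beyond 1 either way, beside 7.97% of the named genes and 1.43% of those with every probe well above background. In the ipsilateral to control comparison, the count was 0 of 10 beside 11% and 2.13%. Between the contralateral and ipsilateral arrays, it was 0 of 10 beside 11.3% and 1.22%. A count of 0 in 10 genes lies near these shares. The count was also 0 in each comparison under all 11 alternative ways of processing.

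**Figure D1:**
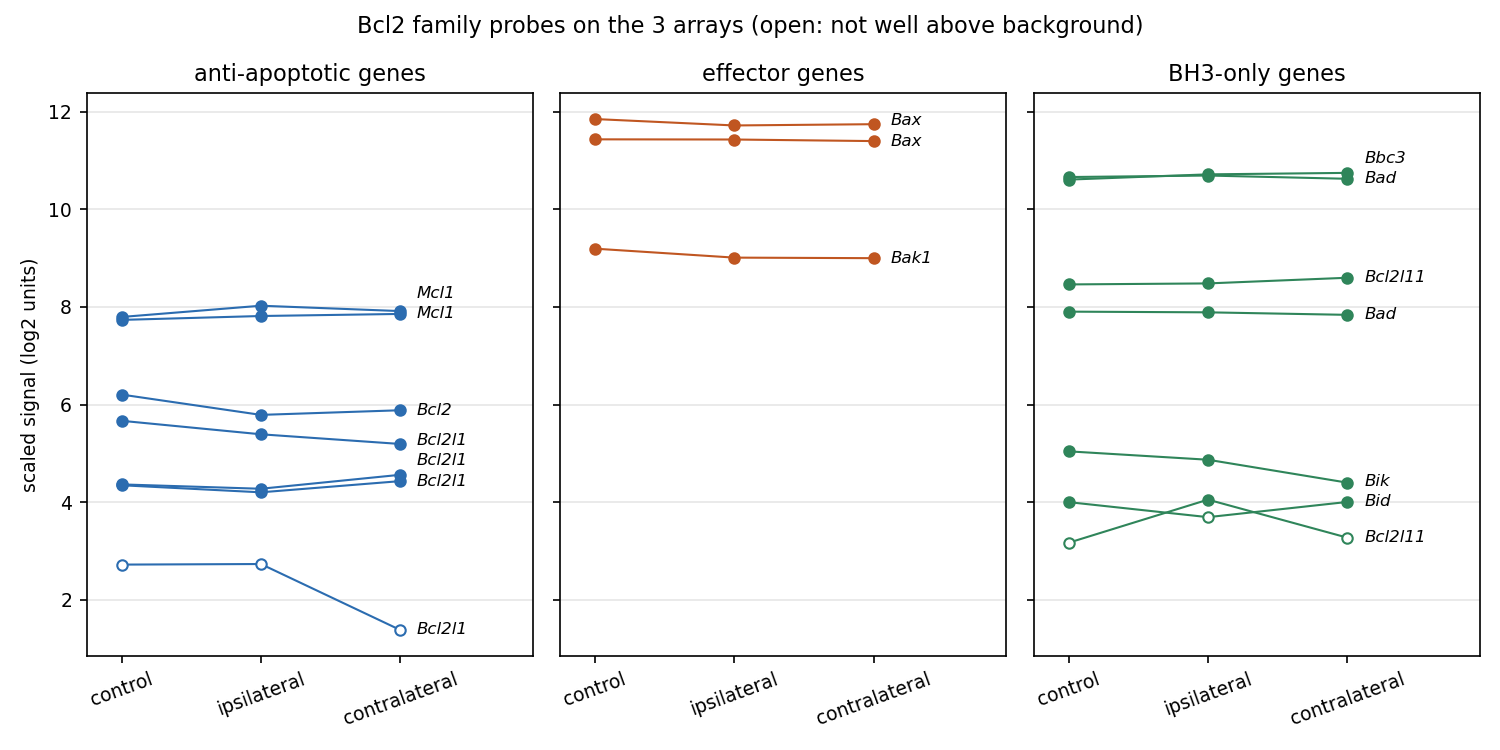
Scaled log2 signal (vertical axis) of each of the 17 member probes on the control, ipsilateral and contralateral arrays (horizontal axis), in 1 panel per role. A line joins the values of 1 probe, open points were not well above background, most lines are near level, and the steepest of a probe above background on all 3 arrays is that of Bik, from 5.04 on the control to 4.40 on the contralateral array.

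The plot of signals by array shows lines that are mostly near level. The spread of signals among probes also depends on the probe and is no measure of these differences. A yardstick for them is the scanner error, whose median over the 11260 genes was 0.20 log2 for each comparison. On bright spots it had nearly the same value for every gene, 0.14 log2 per array, and was not reduced for genes with several spots. It is thus not a spread measured for each gene. The median standard deviation between spots of a probe was smaller, 0.046 contralaterally, 0.047 ipsilaterally and 0.047 on the control array. Within or beyond the error is a description and not a test. Contralaterally, 2 of the 7 members with every probe above background were lower than the control by more than their error, Bcl2 and Bik, beside 15.4% of such genes, and 0 of 7 were higher, beside 12.1%. Ipsilaterally, 1 of 7 was lower, Bcl2, beside 13.6%, and 0 of 7 were higher, beside 16.7%. In the contralateral to ipsilateral comparison, 1 of 7 was lower, Bik, beside 13% of genes, and 0 of 7 were higher, beside 4.4%. These counts are too small to be set apart from the shares of all genes.

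The split of such calls depended on the scaling. Of all contralateral calls beyond the error, 44.0% were higher, and this share was 13.2% without scaling, 33.7% with the deposited values, 55.3% with a common median and 60.7% with normexp background correction. Of the ipsilateral calls 55.2% were higher, against 3.24% without scaling, 40.2% with the deposited values and 85.4% with normexp. For the contralateral to ipsilateral comparison the share was 25.4%, against 96.7% without scaling, 52.4% after quantile normalization and 4.32% with normexp. Without scaling, 4 of 7 members were lower contralaterally and all 7 ipsilaterally, and 6 of 7 were higher contralaterally than ipsilaterally. With the deposited values 3 of 7 were lower contralaterally and 2 ipsilaterally. With normexp and with 50 added to the signal, 0 of 7 were lower contralaterally, so that the calls of Bcl2 and Bik ended there. The errors were kept from the reported processing in each alternative that uses the same probes. Both settings add 50, which makes the ratios of dim spots smaller, while the error was not made smaller with them. A dim probe within its error under these settings, here and below, therefore does not show that a call fails. Ipsilaterally 0 were lower and 1 was higher with normexp, Mcl1, which was also higher by the brightest probe alone. With normexp its ipsilateral ratio was 0.206, and the median of all named genes was 0.205. After quantile normalization 2 were lower ipsilaterally, Bcl2 and Bik, and with a percentile over bright probes 2, Bcl2 and Bak1. Without scaling the median log2 ratio of all named genes was -0.13 and -0.47, so that member ratios are best read against that median.

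Promoters are shown for Bcl2 and Mcl1, whose log2 ratios to the control group had opposite signs under most scalings, and for Bak1 and Bcl2l11 as an effector and a BH3-only gene. RefSeq (GRCr8) gave a promoter for 7 of the 10 members, Bcl2, Bcl2l1 with several starts, Mcl1, Bak1, Bad, Bid and Bcl2l11. The 250 bases before the start site are given on the coding strand, with capitals for matches to the motifs searched. They lie at chr13:23366901-23367150 on the minus strand for Bcl2, chr2:185907918-185908167 on the plus strand for Mcl1, chr20:5110975-5111224 on the minus strand for Bak1 and chr3:135819792-135820041 on the plus strand for Bcl2l11.
Bcl2: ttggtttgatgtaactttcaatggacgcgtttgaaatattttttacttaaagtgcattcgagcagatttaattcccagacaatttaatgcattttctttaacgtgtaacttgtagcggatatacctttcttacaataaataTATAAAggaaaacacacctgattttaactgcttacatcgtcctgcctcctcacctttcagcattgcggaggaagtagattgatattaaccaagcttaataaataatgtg
Mcl1: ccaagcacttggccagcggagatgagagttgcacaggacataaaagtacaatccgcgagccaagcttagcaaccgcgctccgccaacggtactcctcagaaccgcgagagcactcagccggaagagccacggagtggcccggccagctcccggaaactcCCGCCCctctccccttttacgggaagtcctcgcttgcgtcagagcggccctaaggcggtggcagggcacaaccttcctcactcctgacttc
Bak1: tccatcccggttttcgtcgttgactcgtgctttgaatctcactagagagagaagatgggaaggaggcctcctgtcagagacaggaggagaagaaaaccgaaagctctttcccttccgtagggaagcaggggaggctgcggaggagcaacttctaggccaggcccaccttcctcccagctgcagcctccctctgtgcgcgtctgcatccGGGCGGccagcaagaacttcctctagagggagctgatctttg
Bcl2l11: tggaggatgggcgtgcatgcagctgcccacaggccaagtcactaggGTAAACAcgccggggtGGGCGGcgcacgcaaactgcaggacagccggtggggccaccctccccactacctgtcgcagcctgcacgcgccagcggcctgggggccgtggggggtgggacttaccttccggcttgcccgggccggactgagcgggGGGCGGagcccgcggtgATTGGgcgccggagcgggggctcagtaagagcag

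Motifs were searched on both strands, and none of them contains another. Members are counted per gene and the shares per promoter, so that Bcl2l1, with 4 promoters, had more chances of a match than a single promoter has. A GC box (GGGCGG) was found in 4 of the 7 members with a promoter, Mcl1, Bak1, Bid and Bcl2l11, beside 30.5% of 33469 rat promoters. A FOXO motif (GTAAACA) was found in Bad and Bcl2l11, beside 3.22%. A CCAAT box (CCAAT) was found in 2 of the 4 promoters of Bcl2l1 and in Bcl2l11, beside 34.0%, and a TATA box (TATAAA) in Bcl2, beside 12.9%. No match to an E-box (CACGTG, 5.59% of promoters), a CRE (TGACGTCA, 1.59%) or the p53 half-site (6.64%) lay in these windows. The window of Bcl2 was the poorest in G and C, at 33.6%, and that of Bcl2l11 the richest, at 72.0%, while the median of all promoters was 51.2%. A match describes the letters and not a bound factor.

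Bcl2, the founding anti-apoptotic gene, had a lower signal on both MCAO arrays than on the control array, apart from the ipsilateral array with normexp. Its scaled log2 signal was 5.88 on the contralateral, 5.79 on the ipsilateral and 6.21 on the control array, from 1 probe on 1 spot. The control array was thus the highest and the MCAO arrays were close together. The log2 ratio was -0.32 with an error of 0.21 contralaterally and -0.42 with an error of 0.22 ipsilaterally, while the contralateral to ipsilateral ratio was 0.09 with an error of 0.22 and changed sign with normexp. Normexp gave -0.10 contralaterally and a change of sign to 0.03 ipsilaterally. Relative to the median of all named genes under the same processing, Bcl2 stayed below 0 in the 6 of 11 alternatives that move this value, and the alternatives ran from -0.34 to -0.17 contralaterally and from -0.48 to -0.17 ipsilaterally. The other 5 shift each array as a whole and leave it nearly as it is.

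Mcl1, whose protein turns over quickly and binds BH3-only proteins and Bak, lay on the other side of 0, apart from the values without scaling. Its signal was 7.89 on the contralateral, 7.92 on the ipsilateral and 7.77 on the control array, as the mean of 2 probes. The control array was the lowest here. The log2 ratios to it were 0.12 and 0.16, each within an error of 0.21, and the contralateral to ipsilateral ratio was -0.03. The ipsilateral ratio was beyond its error by the brightest probe alone, at 0.23, and just beyond it with normexp. The normexp value was 0.206, where the median of all named genes was 0.205. The probes gave the same contralateral ratio, 0.12, and ipsilateral ratios of 0.08 and 0.23. Without scaling the ratios of Mcl1 were -0.02 and -0.38, and relative to the median of all named genes they were above 0 in the same 6 alternatives on both sides.

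Bcl2l1 encodes the survival factor Bcl-xL and, by splicing, a shorter form that promotes death. It was read by 4 probes that disagreed. The brightest and the fourth were each assigned to a RefSeq transcript of their own, and the others shared another. Whether the disagreement follows the transcripts was not tested. The brightest had signals of 5.19 on the contralateral, 5.39 on the ipsilateral and 5.67 on the control array. Another had 4.56, 4.28 and 4.36, and the third had 4.43, 4.20 and 4.35. The brightest was thus highest on the control array, and the others were highest contralaterally. Their contralateral log2 ratios were -0.48, 0.20 and 0.08, with errors of 0.23, 0.26 and 0.29, and their ipsilateral ratios were -0.28, -0.09 and -0.14, where normexp gave 0.07, 0.31 and 0.38. Without scaling the third probe was below 0 contralaterally as well, at -0.06. The fourth probe was not well above background on any array and gives no ratio. Over the 3 brighter probes Bcl2l1 had log2 ratios of -0.06 contralaterally and -0.17 ipsilaterally, within errors of 0.26 and 0.30. These were 0.05 and 0.25 with normexp. After quantile normalization they were 0.0065 and -0.43, and without scaling -0.21 and -0.70, where both ipsilateral values were beyond the error. The contralateral to ipsilateral ratio was 0.11 with an error of 0.30. It was 0.44 after quantile normalization, 0.49 without scaling and -0.20 with normexp. With the fourth probe included, the contralateral value of the gene was -0.38, so that this probe decided its size.

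Bax and Bak1 encode the pore-forming effectors, and both differed little between arrays. Bax had signals of 11.57 on the contralateral, 11.58 on the ipsilateral and 11.64 on the control array, from 2 probes with 2 spots each. The MCAO arrays were equal and just under the control array. The log2 ratios of Bax were -0.07 on each side with an error of 0.20, and the contralateral to ipsilateral ratio was -0.0033. Bak1 had signals of 9.00, 9.01 and 9.20 in the same order. Its ratios were -0.19 and -0.18, just within the error of 0.20, and -0.01 between the sides. With the deposited values they were -0.23 and -0.24 and without scaling -0.34 and -0.72, beyond that error. With a percentile over bright probes the ipsilateral ratio was beyond it as well, at -0.21. Both effectors were below the control group in all 11 alternatives on each side, and relative to the median of all named genes in the 6 that move that value, and the sign of their ratio between the sides changed with the scaling.

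Of the BH3-only genes, Bik had the largest range over the 3 arrays of any member with every probe above background, 0.64 log2. Its protein sits mainly at the endoplasmic reticulum and acts on calcium and on anti-apoptotic proteins. The signal of Bik was 4.40 on the contralateral, 4.87 on the ipsilateral and 5.04 on the control array, from 1 spot. The contralateral array was the lowest and the others were nearer to each other. The log2 ratio to the control was -0.64 with an error of 0.25 contralaterally and -0.17 with an error of 0.25 ipsilaterally, where it was 0.17 with normexp. The ipsilateral ratio was beyond that error after quantile normalization, at -0.37, and without scaling, at -0.71. The contralateral to ipsilateral ratio was -0.47 with an error of 0.27, and it was within that error without scaling, at -0.08, after quantile normalization, at -0.16, and with 50 added to the signal, at -0.16. The contralateral ratio, at -0.642, lay just outside the range from -0.639 to 0.58 that held the central 95% of the 11260 genes. It was -0.22 when 50 was added to the signal and -0.11 with normexp, which both act most on dim spots such as this one, and relative to the median of all named genes it stayed below 0 in the 6 alternatives that move that value, with a range from -0.66 to -0.18 over all 11.

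Bbc3, the p53 target also called Puma, had signals of 10.75 on the contralateral, 10.72 on the ipsilateral and 10.61 on the control array. The control array was the lowest, by 0.14 and 0.11 log2, within errors of 0.20. Without scaling both ratios were below 0, at -0.0074 and -0.43. Bad, which is held inactive by phosphorylation and 14-3-3 proteins, had signals of 9.23, 9.29 and 9.28 in the same order. Its ratios of -0.05 and 0.01 were the smallest among the BH3-only genes with every probe above background, and its ipsilateral sign changed with the scaling.

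Bcl2l11, also called Bim and a transcriptional target of FOXO factors, was read by 2 probes. The brighter probe had signals of 8.60 on the contralateral, 8.48 on the ipsilateral and 8.46 on the control array, with log2 ratios of 0.14 and 0.02 and an error of 0.20. Without scaling the same probe had ratios of -0.0086 and -0.51. The dimmer probe was well above background on the ipsilateral array alone, with a signal of 4.05 there. Against the control array its signal was 1.85-fold higher ipsilaterally, and against the contralateral array 1.72-fold higher. On the log2 scale these are 0.88 and 0.78, with scanner errors of 0.46 and 0.45. For a bound, a dim array is set at the lowest signal marked well above background on it, or at its own signal if higher. On both dim arrays the own signal of this probe was the higher, so these are observed ratios and not lower bounds. The median of the negative control spots, which are designed to bind no rat RNA, was also 0.51 log2 higher on the ipsilateral than on the control array after scaling, and 0.05 higher on the contralateral array. The part of this offset in the dim probe was not tested, and the brighter probe of the gene shows no such difference.

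Bid, which is cleaved by caspase-8 to link death receptors to mitochondria, had a signal of 4.0 on both the contralateral and the control array, with a log2 ratio of 0.0038, whose sign changed with the scaling, and an error of 0.32. On the ipsilateral array it was not well above background. The signal of Bid was 1.24-fold higher on the control and 1.24-fold higher on the contralateral array than ipsilaterally. These are again observed ratios and not lower bounds. On the log2 scale they were 0.31 each, which is less than the scanner error of 0.41. With normexp the order was turned, with an ipsilateral log2 ratio to the control of 0.36.

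**Figure D2:**
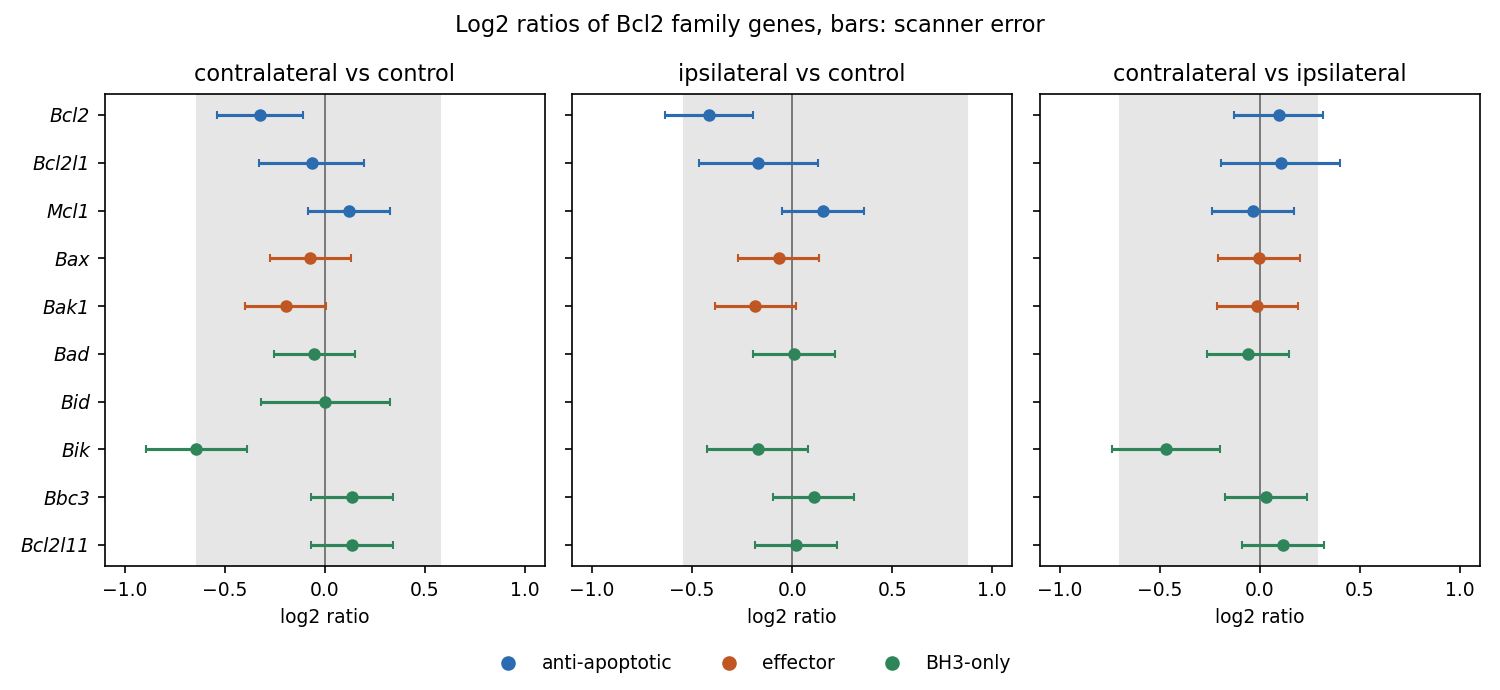
Log2 ratio (horizontal axis) of each member (vertical axis) in the 3 comparisons, over probes well above background on all 3 arrays, with bars for the scanner error, a grey band for the central 95% of 11260 named genes, and Bid only where both arrays were well above background. Bcl2 lies left of 0 by more than its bar in both comparisons with the control group, where normexp gives -0.10 and 0.03, and Bik does so contralaterally, where normexp gives -0.11, and between the sides, where no scaling gives -0.08.

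The roles were then set side by side. In the contralateral to control comparison, the median log2 ratio was -0.32 for the 3 anti-apoptotic members, -0.13 for the 2 effectors and 0.0038 for the 5 BH3-only members, beside 0.01 for all named genes. The anti-apoptotic value rested on the dim Bcl2l1 probe, since it was -0.06 without it. In the ipsilateral to control comparison the medians were -0.12, -0.13 and 0.01, beside 0.07 for all named genes. In the contralateral to ipsilateral comparison they were -0.03, -0.01 and -0.06, beside -0.05. The last BH3-only value rests on dim probes of Bid and Bcl2l11. Over probes well above background on all 3 arrays, which leaves out Bid, the medians between the sides were 0.09 for anti-apoptotic, -0.0073 for effector and -0.014 for BH3-only members. Over all 10 members, 4 were above and 6 below 0 in each comparison with the control group, and all named genes had 8685 above and 7969 below contralaterally and 10139 above and 6515 below ipsilaterally.

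**Figure D3:**
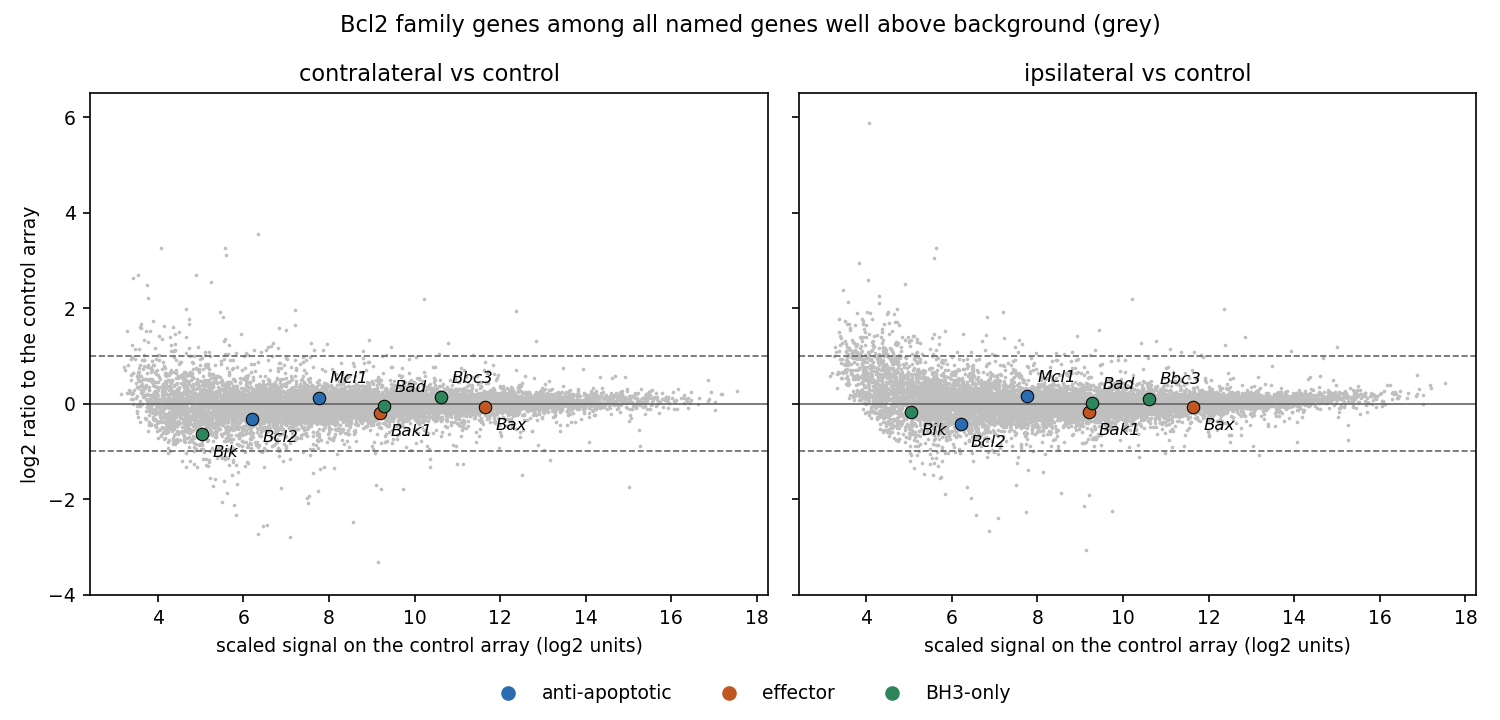
Log2 ratio to the control array (vertical axis) against the scaled log2 signal on that array (horizontal axis) for 11260 named genes whose probes were all well above background (grey) and the 7 such members (coloured by role), contralaterally and ipsilaterally, with dashed lines at the threshold of 1 on each side of 0. All 7 members lie within the cloud of genes of like signal, and dim genes scatter more widely than bright ones.

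The plot of ratio against signal places these values in the whole array. Of the 11260 genes, 86 were above 1 and 75 below -1 contralaterally, and 191 and 49 ipsilaterally. The central 95% range was -0.64 to 0.58 contralaterally, -0.54 to 0.87 ipsilaterally and -0.70 to 0.29 between the sides. The members lay within it in each comparison, apart from Bik and Bid. Bik lay just below it contralaterally, at -0.642 against a limit of -0.639. Bid lay above it between the sides, at 0.31, where its ipsilateral signal was not well above background.

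The difference between the log2 ratios of a pro-apoptotic and an anti-apoptotic gene does not depend on how an array is scaled by 1 factor, and it shows unequal change and not which gene changed. Bax minus Bcl2, a common summary of this balance, was 0.25 with an error of 0.30 contralaterally and 0.35 with an error of 0.30 ipsilaterally. Bax minus Mcl1 was -0.19 and -0.22, each with an error of 0.29, and by the brightest probes alone the ipsilateral value was beyond its error, at -0.36. The sign thus differed between Bcl2 and Mcl1, apart from the ipsilateral value of Bax minus Bcl2 with normexp, which was -0.083. Bcl2l1 was left out of the sets below because 1 of its probes was dim. Over its 3 brighter probes, Bax minus Bcl2l1 was -0.0060 with an error of 0.33 contralaterally and 0.10 with an error of 0.36 ipsilaterally.

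Similar signs were seen across the 5 pro-apoptotic members with every probe above background. Against Bcl2, 4 of 5 differences were above 0 contralaterally, with a median of 0.25, and 5 of 5 ipsilaterally, with a median of 0.35. Bik minus Bcl2 was the contralateral exception, at -0.32. Against Mcl1, 1 of 5 was above 0 contralaterally, Bbc3 minus Mcl1 at 0.02, with a median of -0.19, and 0 of 5 ipsilaterally, with a median of -0.22. Differences larger than their error were Bbc3 minus Bcl2 contralaterally, at 0.46, and Bax, Bad and Bbc3 minus Bcl2 ipsilaterally, at 0.35, 0.42 and 0.52. Of the 11 alternatives, 7 leave all these differences as they are, since they scale by 1 factor or keep the same probes, and at most 4 move one (quantile normalization, normexp, 50 added to the signal and the brightest probe only). Of those that moved it, Bbc3 minus Bcl2 was beyond its error in 2 of 3 on each side, Bax minus Bcl2 ipsilaterally in 1 of 4 and Bad minus Bcl2 in 2 of 4, and none of these was so with normexp. Bak1 and Bik minus Mcl1 were beyond their error as well, at -0.32 and -0.76 contralaterally and at -0.34 and -0.33 ipsilaterally. On each side Bak1 minus Mcl1 was so in 3 of the 4 alternatives that moved it and Bik minus Mcl1 in 2 of 4. For Bak1 this ended contralaterally with 50 added to the signal, at -0.28, and ipsilaterally with normexp, at -0.29. For Bik it ended with both, at -0.32 and -0.25 contralaterally and at -0.19 and -0.03 ipsilaterally. The 5 differences of a set share 1 anti-apoptotic gene and are not independent. Over the alternatives, 3 to 4 of 5 were above 0 against Bcl2 contralaterally and 3 to 5 ipsilaterally, and against Mcl1 0 to 1 and 0.

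**Figure D4:**
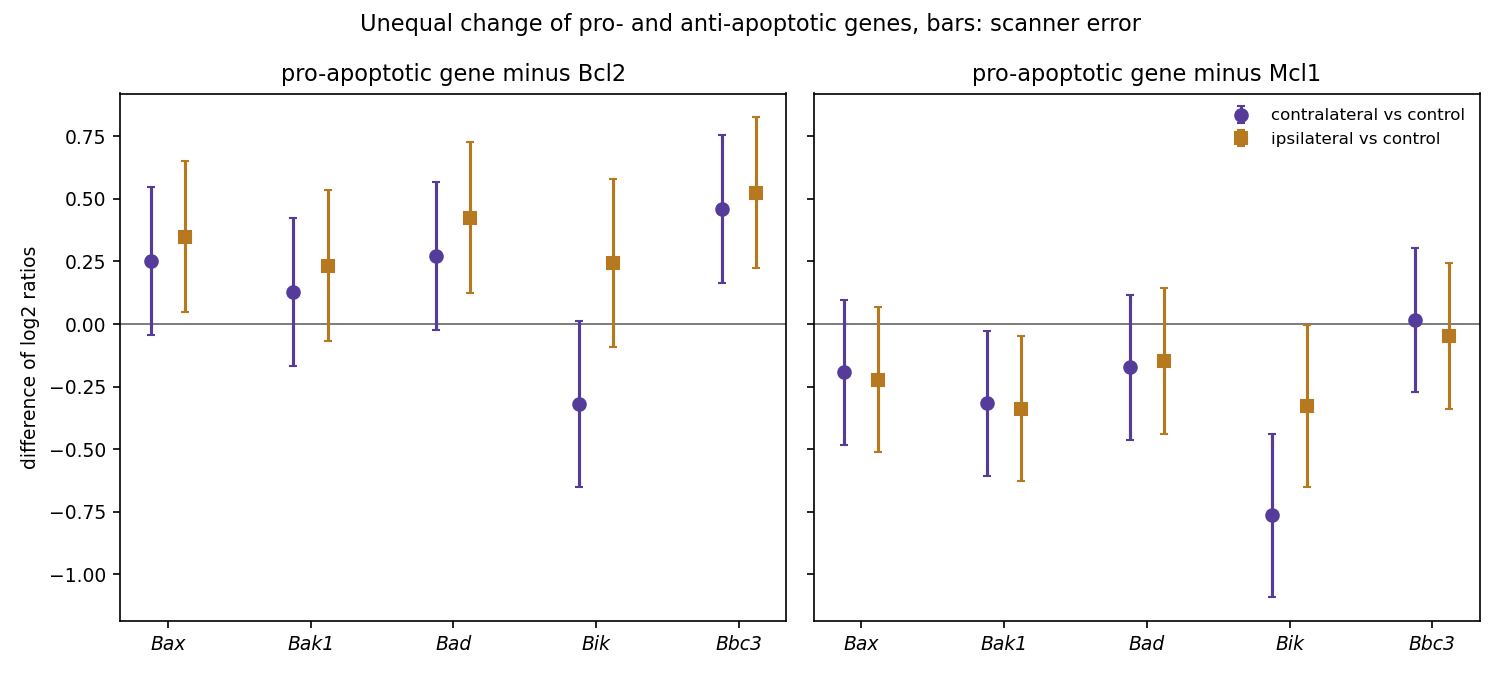
Difference of log2 ratios (vertical axis) between each of 5 pro-apoptotic members (horizontal axis) and Bcl2 (left) or Mcl1 (right), for the contralateral (circles) and ipsilateral (squares) array against the control, with bars for the scanner error of the difference. Points against Bcl2 lie mostly above 0, with Bik contralaterally at -0.32, and those against Mcl1 lie mostly below it, with Bbc3 contralaterally at 0.02, while normexp turns Bak1 minus Bcl2 on both sides and Bax minus Bcl2 ipsilaterally below 0.

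The same differences were taken between the sides. The contralateral to ipsilateral values against Bcl2 were all below 0, with a median of -0.11, and those against Mcl1 had 3 of 5 above 0, with a median of 0.02. Bik minus Bcl2 at -0.56 and Bik minus Mcl1 at -0.44 were beyond their errors of 0.35 and 0.34. Of the alternatives that moved them, they were so in 1 of 3 and 1 of 4, and within the error with normexp, at -0.15 and -0.22, with 50 added to the signal, at -0.21 and -0.13, and for Bik minus Mcl1 after quantile normalization, at -0.13. The count against Bcl2 was 0 to 4 of 5 over the alternatives.

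Of 13 other family genes listed, 12 were on the array, Bcl2l13 was not, and 8 had every probe well above background, with a median log2 ratio of -0.0035 contralaterally and 0.07 ipsilaterally. With the reported scaling none of these 8 passed the threshold, beside 1.43% of the 11260 genes contralaterally and 2.13% ipsilaterally. A count of none in 8 lies near these shares. Bcl2l10, an anti-apoptotic relative, had signals of 7.05 on the contralateral, 6.81 on the ipsilateral and 6.76 on the control array. Its contralateral log2 ratio of 0.28 was beyond its error of 0.21, but within it without scaling. Hrk, a BH3-only gene of neurons, had 10.48, 10.36 and 10.27, with ratios of 0.21 and 0.09. Both genes were highest contralaterally.

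Bcl2l2, which encodes the survival factor Bcl-w, had signals of 8.27, 8.61 and 8.45, with ratios of -0.19 and 0.15. Its probes disagreed, since the brighter had ratios of 0.01 and 0.08 and the dimmer -0.38 and 0.23. Bok, an effector relative, had ratios of -0.05 and 0.06. Among the atypical genes, Bnip3 and Bnip3l, which act in mitophagy, had contralateral ratios of 0.05 and 0.18 and ipsilateral ratios of 0.12 each. Bcl2l12 had -0.22 and -0.15. Bcl2l15 had signals of 5.67, 5.14 and 5.86, so that the ipsilateral array was the lowest, with a ratio of -0.73 and an error of 0.25 there and of -0.20 contralaterally. Bmf, a BH3-only gene linked to the cytoskeleton, had 1 of 2 probes above background, with signals of 3.85, 4.63 and 4.18. Bcl2a1, Pmaip1 and Bcl2l14 were not well above background on any array.

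Genes that work with the family were described from lists. Of 66 genes, 64 were on the array and 59 had every probe above background, with a median log2 ratio of 0.0041 contralaterally and 0.01 ipsilaterally. None of the 59 was beyond 1 on either side, beside 1.43% of the 11260 genes contralaterally and 2.13% ipsilaterally. A count of none in 59 lies near these shares. Without scaling E2f1, described below, passed the threshold ipsilaterally, at -1.06. The restriction leaves out Cdkn1a, Fas, Pim1, Tp73 and Usp9x, named after their values were seen. Cdkn1a, a p53 target that halts the cell cycle, had log2 ratios of 1.27 contralaterally and 1.41 ipsilaterally by its bright probe, each with an error of 0.20. The kinase gene Pim1 was well above background on the control array alone, which gives a signal there at least 1.46-fold higher than contralaterally and at least 1.07-fold higher than ipsilaterally. By more than the error, 4 of the 59, or 6.78%, were higher and 4, or 6.78%, lower contralaterally, beside 12.1% and 15.4% of the 11260 genes. Ipsilaterally 6, or 10.2%, were higher and 8, or 13.6%, lower, beside 16.7% and 13.6%.

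Downstream of the mitochondria, 4 of 13 genes of cytochrome c release and the apoptosome were above 0 contralaterally and 9 below, and 6 were above 0 ipsilaterally and 7 below. Casp6, an executioner caspase, was the lowest contralaterally, with signals of 5.95 on the contralateral, 5.95 on the ipsilateral and 6.36 on the control array and ratios of -0.41 on each side with errors of 0.21 and 0.22, where normexp gave -0.12 and 0.07. Casp9, the initiator caspase of the apoptosome, was the highest contralaterally, with a ratio of 0.14 there and 0.06 ipsilaterally, both below 0 without scaling. By its brightest probe alone the ratios of Casp9 were 0.08 and 0.40, the ipsilateral one beyond its error of 0.22. After quantile normalization the ipsilateral ratio was -0.09. Ipsilaterally the highest was Birc3, an inhibitor of apoptosis gene named after its values were seen, with a ratio of 0.84 and an error of 0.32. Its contralateral to ipsilateral ratio was -0.84 with an error of 0.33, and it was within that error with 50 added to the signal, at -0.24. The probe was dim, with an ipsilateral signal of 4.73, and the ipsilateral ratio was within its error without scaling, at 0.30, and with 50 added to the signal, at 0.24. The negative control spots were 0.51 log2 higher on the ipsilateral array, as above, and their part in this ratio was not tested. The 7 outer membrane partners ran contralaterally from -0.13 for Dnm1l, a fission dynamin, to 0.09 for Vdac2, the channel that binds Bak. These ratios were within their errors.

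Upstream, the 20 transcriptional and kinase regulators had a median contralateral ratio of 0.03. Foxo1, a factor that drives Bcl2l11, had the largest contralateral ratio of those with every probe above background, with signals of 8.13, 8.16 and 7.42 and ratios of 0.70 and 0.73 with errors of 0.21. E2f1, a cell cycle factor, had the smallest, with signals of 5.95, 6.24 and 6.77 and ratios of -0.82 and -0.53. These ratios were beyond their errors, apart from the ipsilateral ones of Foxo1 without scaling, at 0.20, and of E2f1 with normexp, at -0.05. Of the protein-level regulators with every probe above background, Casp8 had the largest contralateral ratio, 0.28, or 0.88 by its brightest probe alone, and Ywhaq, a 14-3-3 protein, the smallest, -0.21. Of the other p53 target genes with every probe above background, which leaves out Cdkn1a, Phlda3 was the largest contralaterally, with 0.44 there and 0.43 ipsilaterally, or -0.11 ipsilaterally without scaling, and Btg2 the smallest contralaterally, with -0.12 there and -0.21 ipsilaterally.

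The genes whose pattern over the 3 arrays was most like that of Bik, by the distance between centred log2 signals, were Rdh12, Jmjd4 and Kctd7, at distances of 0.02, 0.02 and 0.03 log2. Rdh12 had signals of 5.08 on the contralateral, 5.53 on the ipsilateral and 5.72 on the control array. Within a distance of 0.1 there were 35 genes, so that with 3 arrays the likeness singles out no gene.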

How the data were processed

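Cy3-labelled RNA was hybridised by the authors to 1-colour Agilent arrays. They deposited a background-subtracted, spatially corrected intensity per spot from Feature Extraction 12.1.0.3. They also deposited a table of intensity values, found to be the processed signals times 1 factor per array (1.12 contralateral, 1.45 ipsilateral, 1.04 control) on a linear scale without centring, with medians of 139, 140 and 147. Whether these factors are the normalization of the methods is not stated. The 3 arrays lay on 1 slide.

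Log2 processed signals were shifted to a common 75th percentile over 58717 non-control spots, leaving out 759 outlier spots. Spots were averaged per probe, then probes per gene. The files hold no gene column, so 17622 of 39957 accessions were named through the RefSeq table (GRCr8). The files hold no mean signal, so the normexp alternative used median signals with an offset of 50. Of 58717 spots, 42470 (contralateral), 43028 (ipsilateral) and 43283 (control) were well above background. The number of arrays limits the precision. The error of a ratio combines the scanner errors of both arrays, averaged over spots and probes without a reduction for their number. It was kept from the reported processing in alternatives that use the same probes. Counting genes beyond this error, and giving genes over bright probes alone, were choices made after the data had been seen.

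The members and lists were chosen with earlier results of these data known. Genes named are the members, the other listed family genes, the largest and smallest contralateral ratio of each pathway list among genes with every probe above background, the most abundant gene of each cell type list, and 3 genes most like the member of largest range. Where another gene is named, the text says so. Some cell type markers, with the list that one of them leads, are not reported here. Besides the reported processing, 11 alternatives were run, namely no scaling, a common median, a percentile over bright probes, quantile normalization, the deposited values, normexp, 50 added to the signal, the brightest probe, bright probes, curated accessions, and outliers kept. The pipeline was tested on simulated data. Python 3.11.15, numpy 2.4.6, pandas 2.3.3, matplotlib 3.10.9, R 4.3.3 and limma 3.58.1 were used.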

Additional observations from a re-analysis of the deposited data

Results flagged for a closer look

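The contralateral and ipsilateral log2 ratios to the control array had opposite signs in Bmf, Bcl2l2, Bok and Bad, over probes well above background on all 3 arrays. The share of all named genes with opposite signs is not given here, so this does not set the family apart. Which genes are listed depends on the scaling. Without scaling all 4 were below 0 on both sides, with Bad at -0.20 and -0.53. With the deposited values Bad was also below 0 on both sides, at -0.09 and -0.05. With 1 array per side, none of the differences between the sides was tested. Bmf had the widest gap, with -0.33 contralaterally and 0.46 ipsilaterally from 1 dim probe, a difference of -0.79 with a scanner error of 0.35. Negative control spots differed in the same direction, with a contralateral to ipsilateral difference of -0.46 between their medians, and their part in the Bmf value was not tested. Bcl2l2 had -0.19 and 0.15, a difference of -0.34 with an error of 0.22 that came mainly from the dimmer of its 2 probes. Bok had -0.05 and 0.06, a difference of -0.11 within its error of 0.20. Bad had -0.05 and 0.01, a difference of -0.059, also within its error of 0.20.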

How the results depend on the processing

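Of 143 alternative values of the 13 main results, 130 moved by less than the scanner error or, for the 3 counts of members beyond 1, not at all, and of 327 alternative member ratios 291 moved by less than their error. Without scaling, the ipsilateral to control medians were -0.66 for anti-apoptotic, -0.66 for effector and -0.53 for BH3-only members, and the contralateral to ipsilateral medians were 0.36, 0.38 and 0.33, while the median of all named genes was -0.47 and 0.34. Quantile normalization gave anti-apoptotic medians of -0.47 ipsilaterally and 0.20 between the sides. Normexp gave 0.068 contralaterally and 0.21 ipsilaterally, where the median of all named genes was 0.07 and 0.20. The contralateral anti-apoptotic median was -0.060 with 50 added to the signal, -0.065 over bright probes and -0.065 over curated accessions. The last 2 leave out the dim Bcl2l1 probe, and the cause of the others was not tested. Bax minus Bcl2 ran from 0.05 to 0.25 contralaterally, above 0 in all 4 alternatives that move it, and from -0.083 (normexp) to 0.38 ipsilaterally, above 0 in 3 of those 4 and beyond its error in 1, while the other 7 leave it as it is by construction. The number of genes beyond 1 among those with every probe above background was 161 contralaterally, 240 ipsilaterally and 137 between the sides, against 37, 48 and 10 with normexp and 46, 45 and 15 with 50 added, and without scaling the ipsilateral count was 428. Bid has no value over bright probes. Signal over background limits the readings of Bid, Bik, Bcl2l1 and the dim Bcl2l11 probe. No paired analysis was possible because each condition had 1 array, although both MCAO sides came from the same rats.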
